A study of Mus musculus with 24 samples.

Results

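De novo lipogenesis builds fatty acids from glucose carbon, and the 10 genes described here encode its enzymes and main transcriptional regulators: Acly, Acaca, Acacb, Fasn, Me1, Elovl6, Scd1, Scd2, Srebf1 and Mlxipl. Each was taken from the table by its symbol, with 1 entry of the 168326 in the deposited expression table for each gene, namely the RefSeq NM_ entry with the highest mean level over the 24 libraries. All 10 passed the filter on low values in every comparison. The cells were primary mouse preadipocytes from inguinal white adipose tissue of 129SvEv mice, driven to differentiate into brite adipocytes, white-fat cells that acquire a thermogenic program. In every group they had been induced for 2 days, kept for 1 day in differentiation medium with insulin, T3 and rosiglitazone, and then given a gapmer at 50 nM by reverse transfection. A gapmer is a short antisense strand whose DNA core, flanked by locked bases, lets RNase H cut the matching RNA. It either targeted the long noncoding RNA Ctcflos (knockdown, KD) or was nontargeting (negative control, NC), and RNA was taken 24 h or 72 h later, with fresh differentiation medium given after 24 h to the cultures kept to 72 h. Each of the 4 groups had 6 libraries, and the labels name neither the gapmer sequence used for them nor separate animals behind the replicates. The paper's figure legends give n = 6 biological replicates for marker genes in its transcriptome of the early knockdown. The p-values below measure the spread between these samples, which may be partly technical.

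The pathway runs in a line. Mitochondrial citrate is exported and split into acetyl-CoA by Acly, acetyl-CoA is carboxylated to malonyl-CoA by Acaca, and Fasn condenses malonyl-CoA into palmitate with NADPH that Me1 helps to supply. Elovl6 lengthens palmitate to stearate, Scd1 and Scd2 place a double bond in the chain, and Acacb makes a pool of malonyl-CoA at mitochondria that restrains fatty acid oxidation. Srebf1 encodes the sterol-response factor SREBP1 and Mlxipl the glucose-responsive factor ChREBP, and brown and brite fat are known for combining this synthesis with fat burning.

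Levels are given as scaled RPKM (reads normalised to transcript length and library size, rescaled so that the bulk of genes matched between libraries). Because the libraries carry tags from the 3′ end of transcripts, RPKM understates long transcripts, and any level or ratio set between genes carries this bias. Totals recovered from the table ran from 1391832 to 5423840 reads in 23 of the 24 libraries. NC 72 h replicates 2 and 3 differed by less than sampling noise (0.34 of it, against 2.0 for the next closest pair of the group) and entered as their mean, which leaves n = 5 for NC 72 h. In NC 72 h replicate 6, only 14.9% of recovered read numbers were odd, against at least 54.0% in every other library. Its 5926375 steps were therefore taken as pairs for 1 read each, and its depth is uncertain. The transcript of the targeted locus, listed as 1300015D01Rik, lay at 0.741 ± 0.515 RPKM (SD, n = 6) in NC and 0.189 ± 0.244 in KD at 24 h, 25.5% of control (2-sided exact permutation test, p = 0.045). These values rested on 60 and 12 reads, and the ranges overlapped, from 0.178 to 1.38 in NC and from 0 to 0.620 in KD. At 72 h the transcript lay at 1.23 ± 0.408 RPKM (n = 5) in NC and 0.231 ± 0.220 (n = 6) in KD, 18.8% of control (exact permutation test, p = 0.0022), on 79 and 17 reads. The samples also fell into 2 clusters that cut across all 4 groups: the larger held 4, 4, 3 and 4 samples of NC 24 h, KD 24 h, NC 72 h and KD 72 h, and the smaller held 2 of each. The clusters were found in the deviations of 5712 genes from their group means, and all 23 samples fell in the same clusters without the 10 genes and the listed genes of their pathway.

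At 24 h Acaca was the gene called among the 10. In all, 1 was lower and 0 were higher at an adjusted p under 0.05 (limma, Benjamini-Hochberg over all 52004 entries tested), while 11.2% of all entries were called lower and 10.8% higher, so the share among the 10 was near the background. The median log2 fold change of the 10 was -0.17, against -0.02 over all entries. At 72 h 6 of the 10 were lower and 0 higher, Acaca, Fasn, Acly, Scd1, Mlxipl and Me1, where 11.5% of the 54446 entries tested were called lower and 10.6% higher. These shares count all entries, often several for a gene. With 1 entry per symbol, as for the 10, 1278 of 11111 were lower and 1249 higher at 24 h. At 72 h 1491 of 11576 were lower and 1295 higher. All 10 estimates lay below 0 at 72 h (Srebf1 at 0.09 without scaling), and their median was -0.95, against 0.02 over all entries. Without scaling, the median of all entries moved to 0.05 at 24 h and 0.25 at 72 h, calls at 72 h changed from 5787 higher and 6280 lower to 13166 and 3102, and 7 and 9 of the 10 genes lay below 0, with medians of -0.11 and -0.72. On scaled values, every KD sample lay below every NC sample for Acaca at 24 h (1 of 10, where 6.44% of all entries did so) and for Acaca, Fasn, Acly, Scd1 and Me1 at 72 h (5 of 10, where 7.43% did so). Before scaling, Fasn and Me1 overlapped at 72 h. Fasn read 61.0 and 67.5 RPKM in KD replicates 5 and 6 and 57.1 in NC replicate 4. Me1 read 124 in KD replicate 5 and 120 in NC replicate 4.

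**Figure D1:**
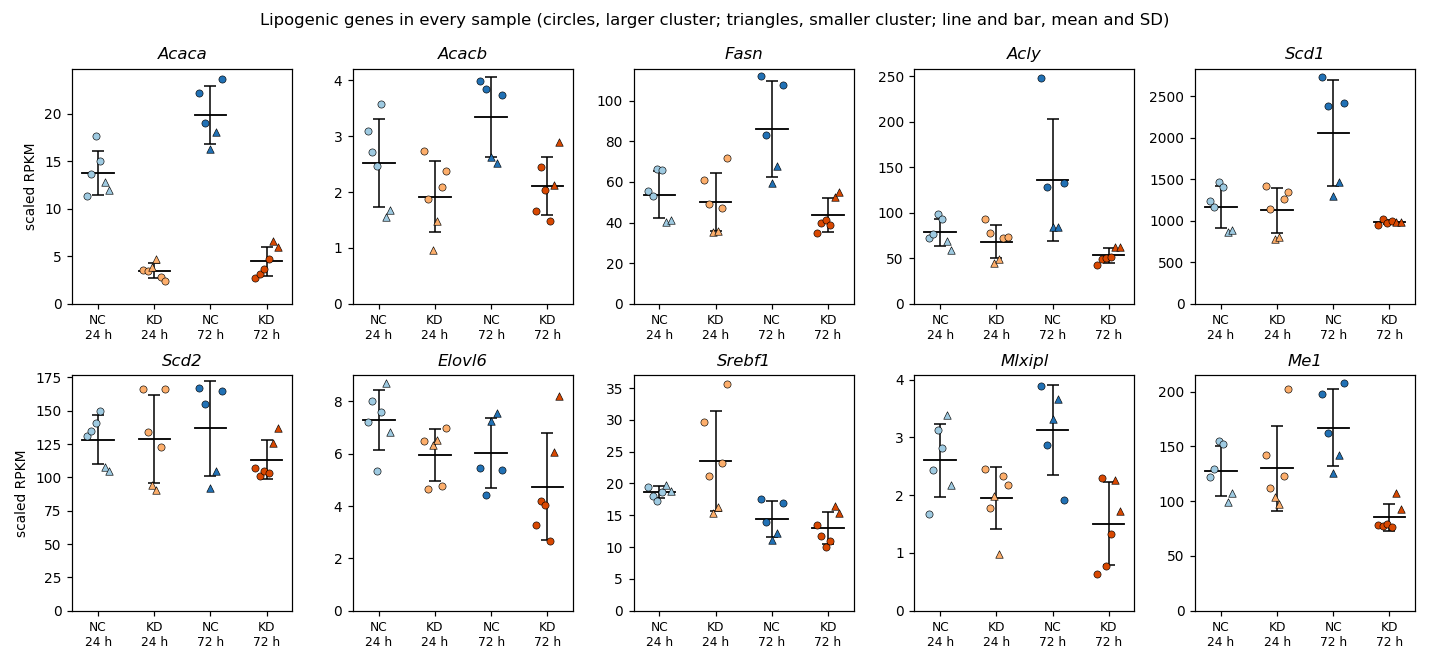
Scaled RPKM of the 10 genes in each of the 23 samples, by group (NC 24 h, KD 24 h, NC 72 h, KD 72 h), with circles for the larger cluster, triangles for the smaller, and the mean and SD as line and bar. For Acaca both KD groups lie wholly below their controls, and for Fasn, Acly, Scd1 and Me1 the groups overlap at 24 h and are apart at 72 h. For Fasn and Me1 they are apart only after scaling.

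The promoters of these genes were read from RefSeq (GRCm38.p6) as windows of 300 bases, from 250 before to 50 after each annotated start, for 8 of the 10 genes and 12 windows, and Scd1 and Scd2 were without a window. Windows of Acly and Fasn, which were among the genes called at 72 h and not at 24 h, and of the regulators Mlxipl and Srebf1 are printed. Those of Acaca, Acacb, Elovl6 and Me1 are not. The motifs searched were CACGTG (the E-box core that ChREBP and USF factors use), CACCCCAC (a core of the sterol regulatory element), CCAAT (bound by NF-Y) and GGGCGG (bound by Sp1), each on both strands. Capitals mark the motif letters, shown as ATTGG or CCGCCC where the match lies on the other strand. Srebf1 has 3 windows and Mlxipl 2, and the one at the lowest coordinate is shown for each. For Srebf1, on the minus strand, this is the most downstream of the 3 starts, and for Mlxipl the upstream one. Windows were matched by symbol and not to the entry measured.
Fasn, chr11:120824498-120824797, minus strand: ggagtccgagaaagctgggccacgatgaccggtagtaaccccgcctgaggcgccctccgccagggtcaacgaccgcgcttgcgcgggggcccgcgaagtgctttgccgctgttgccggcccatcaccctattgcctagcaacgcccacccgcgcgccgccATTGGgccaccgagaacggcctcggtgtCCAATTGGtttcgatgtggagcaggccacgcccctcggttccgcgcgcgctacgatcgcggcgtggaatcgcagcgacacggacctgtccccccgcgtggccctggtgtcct
Acly, chr11:100527951-100528250, minus strand: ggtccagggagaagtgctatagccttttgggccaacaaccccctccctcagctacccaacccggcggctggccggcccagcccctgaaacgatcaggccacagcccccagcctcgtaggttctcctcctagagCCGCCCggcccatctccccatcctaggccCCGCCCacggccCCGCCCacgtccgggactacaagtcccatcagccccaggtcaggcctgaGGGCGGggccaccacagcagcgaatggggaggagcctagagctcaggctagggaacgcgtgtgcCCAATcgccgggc
Srebf1, chr11:60210422-60210721, minus strand: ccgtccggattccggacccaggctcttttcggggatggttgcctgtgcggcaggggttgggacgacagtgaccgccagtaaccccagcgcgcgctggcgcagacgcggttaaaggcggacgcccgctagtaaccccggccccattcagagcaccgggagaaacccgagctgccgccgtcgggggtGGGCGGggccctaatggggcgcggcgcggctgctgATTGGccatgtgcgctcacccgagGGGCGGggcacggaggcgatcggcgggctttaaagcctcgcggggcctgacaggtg
Mlxipl, chr5:135089640-135089939, plus strand: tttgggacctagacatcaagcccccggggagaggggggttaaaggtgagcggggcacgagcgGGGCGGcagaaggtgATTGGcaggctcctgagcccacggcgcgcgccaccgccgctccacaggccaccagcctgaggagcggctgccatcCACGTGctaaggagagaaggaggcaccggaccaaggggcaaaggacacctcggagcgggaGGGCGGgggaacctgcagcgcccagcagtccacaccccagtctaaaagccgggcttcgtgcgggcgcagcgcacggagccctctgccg
CCAAT lay in 7 of the 12 windows, from 6 genes, and in 37.4% of all 32851 windows of this length. In the Fasn window it occurred 3 times, at -90, -62 and -59 bases from the start, the last pair overlapping on opposite strands. GGGCGG lay in 5 windows, from 4 genes, and in 35.7% of all windows, and the Acly window held 4 matches. CACGTG was found in 1 window, that of Mlxipl at -98 (7.15% of all windows), and CACCCCAC in 0 of 12 (2.87% of all windows). The windows of Acaca and Elovl6 and the Mlxipl window not shown held no match to any of the motifs. These matches describe letters in these windows and say nothing of binding.

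Acaca, whose product acetyl-CoA carboxylase 1 makes malonyl-CoA for fatty acid synthesis, was the most reduced of the 10 at both times. In NC at 24 h its scaled RPKM ranged from 11.3 to 17.7 (median 13.2, n = 6), and in KD from 2.44 to 4.73 (median 3.49, n = 6). No KD sample came near the control range. The fall was to 25.6% of control (log2 fold change -1.97 ± 0.18 SE, 95% interval -2.36 to -1.58, adjusted p = 4.6e-05). The NC samples at 72 h read 22.2 (replicate 1), 19.0 (the averaged pair), 16.3 (replicate 4), 18.1 (replicate 5) and 23.7 (replicate 6), and the KD samples ran from 2.76 to 6.57 with a median of 4.20. The groups were again apart, at 22.1% of control (-2.18 ± 0.22, adjusted p = 2.1e-05). All 4 Acaca entries tested at 24 h and all 7 tested at 72 h were lower, from -2.04 to -1.09 and from -2.22 to -1.49, including the shorter GenBank entry AK132628 of 826 bases, the one that took the most reads per length (mean 102 RPKM). These entries share reads and are no separate measurements.

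The Acaca locus spans 272 kb, the longest of the 10 by RefSeq, and genes of that length were called lower more often than short ones at both times. Of 339 RefSeq genes over 200 kb tested at 24 h, 59.0% were called lower with a median log2 fold change of -0.93, against 7.71% and 0.07 of 6513 genes under 50 kb. At 72 h 41.8% of 376 such genes were lower (median -0.65), against 9.55% of 6772 short genes (median 0.08). The Acaca values of -1.97 and -2.18 lay below these class medians, and the part of gene length in them was not tested. Acacb (104 kb), Elovl6 (106 kb) and Me1 (115 kb) fall in the next class, from 100 to 200 kb, whose median was -0.33 at 24 h and -0.18 at 72 h.

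Acacb encodes the mitochondrial isoform. In NC at 24 h it ranged from 1.56 to 3.57 scaled RPKM (median 2.60), and in KD from 0.959 to 2.73 (median 1.98), so the groups overlapped (-0.38 ± 0.28, adjusted p = 0.34, 95% interval -0.98 to 0.22). At the later time the NC samples read 3.99 (replicate 1), 3.85 (the averaged pair), 2.62, 2.52 and 3.73 (replicates 4, 5 and 6), and KD ran from 1.48 to 2.90 (median 2.08). Of the 6 KD samples, 5 lay below the lowest NC sample. The difference of -0.65 ± 0.22 stayed just outside the threshold (adjusted p = 0.051, 95% interval -1.13 to -0.17). The Ensembl entry of the same gene passed at 72 h (-0.66 ± 0.22, adjusted p = 0.046), and 3 of its 5 entries tested did so. The NM_ entry itself also passed with a pseudocount of 1 (0.046), a filter of 20 reads (0.037), 1 entry per symbol (0.044), NM_ entries alone (0.036), voom (0.022), no intensity trend (0.035) and NC 72 h replicates 2 and 3 counted separately (0.023), and without NC 72 h replicate 4 (0.047), NC 72 h replicate 5 (0.045) or KD 72 h replicate 6 (0.031), all as adjusted p, so its call depends on these settings.

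The ratio of Acaca to Acacb was lower in KD at both times. Acaca stood at 5.92 ± 1.87 times the Acacb level in NC and 2.13 ± 1.21 times in KD at 24 h (SD, n = 6 and 6), and at 6.04 ± 0.842 and 2.18 ± 0.769 times at 72 h (n = 5 and 6). The log2 difference was -1.60 at 24 h (2-sided exact permutation test, p = 0.0043, adjusted over 6 ratio tests 0.0052) and -1.53 at 72 h (p = 0.0022, the smallest these group sizes allow, adjusted 0.0032). Acaca against Fasn fell likewise, from 0.261 ± 0.0419 to 0.0773 ± 0.0362 at 24 h (log2 difference -1.88) and from 0.237 ± 0.0318 to 0.10 ± 0.0203 at 72 h (-1.25), each with exact permutation p = 0.0022, adjusted 0.0032. Both ratios hold Acaca in the same samples, so they are no evidence apart from the Acaca difference given above.

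Acly, which supplies acetyl-CoA to the cytosol, was called lower at 72 h and not at 24 h. At 24 h NC ranged from 59.0 to 98.8 scaled RPKM (median 74.9) and KD from 44.6 to 92.6 (median 72.5), and the groups overlapped (-0.23 ± 0.18, adjusted p = 0.39, 95% interval -0.62 to 0.17). At 72 h the NC samples read 248 (replicate 1), 128 (the averaged pair), 84.7, 83.9 and 133 (replicates 4, 5 and 6), while KD ran from 42.6 to 62.9 (median 50.5). The control values spread widely, with 1 sample far above, and every KD sample lay below all of them, at 42.3% of control (-1.24 ± 0.23, adjusted p = 0.0018). Of the 9 Acly entries tested at 72 h, 7 were lower.

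Fasn, the multifunctional enzyme that makes palmitate, moved the same way. At 24 h NC ranged from 40.2 to 66.6 scaled RPKM (median 54.4) and KD from 35.4 to 71.9 (median 48.1), groups that overlapped at both ends (-0.12 ± 0.19, adjusted p = 0.67, 95% interval -0.53 to 0.29). The 71.9 was KD 24 h replicate 6, the library with the fewest reads, and the next highest KD sample read 60.9. The NC samples at 72 h read 112 (replicate 1), 83.3 (the averaged pair), 59.6, 67.7 and 108 (replicates 4, 5 and 6), and KD ran from 34.8 to 55.2 (median 40.6). Fasn was then at 51.7% of control (-0.95 ± 0.18, adjusted p = 0.0017), and all 8 of its entries tested were lower.

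Me1, cytosolic malic enzyme, had a close to identical mean in both groups at 24 h: NC ranged from 99.2 to 155 scaled RPKM (median 126) and KD from 97.2 to 202 (median 118), with a log2 difference of 0.00 ± 0.17 and a 95% interval of -0.37 to 0.37 (adjusted p = 1). The 202 was KD 24 h replicate 6, the library of 1391832 reads, and without it the difference read -0.13 ± 0.13. At the later time the NC samples read 198 (replicate 1), 162 (the averaged pair), 126, 142 and 208 (replicates 4, 5 and 6), and KD ran from 76.6 to 107 (median 78.6). The scaled ranges were then apart, which they were not before scaling, with Me1 at 51.5% of control (-0.96 ± 0.14, adjusted p = 3.6e-04).

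Scd1, the main stearoyl-CoA desaturase of adipocytes, ranged at 24 h from 865 to 1461 scaled RPKM in NC (median 1201) and from 781 to 1420 in KD (median 1200). The difference was -0.07 ± 0.18 (adjusted p = 0.82, 95% interval -0.45 to 0.32). At 72 h the NC samples read 2734 (replicate 1), 2383 (the averaged pair), 1294, 1469 and 2419 (replicates 4, 5 and 6), and the KD samples lay in a narrow band from 949 to 1025 (median 983). The KD group had an SD of 24.5 around a mean of 985, a coefficient of variation of 2.49%, whereas the NC group had an SD of 637 around 2060. The narrowness of the KD band came partly with the scaling, since the deposited RPKM of the same samples had an SD of 73.8 around 1095. Scd1 was at 49.9% of control (-1.0 ± 0.17, adjusted p = 9.8e-04), and all 7 entries tested were lower.

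Scd2, the paralog, was not called. At 24 h NC ranged from 105 to 150 scaled RPKM (median 133) and KD from 90.6 to 166 (median 128), and the difference was -0.02 ± 0.16 (adjusted p = 0.94). The NC samples at 72 h read 167 (replicate 1), 155 (the averaged pair), 92.0, 105 and 165 (replicates 4, 5 and 6), and KD ran from 101 to 137 (median 106). The groups overlapped, with a 95% interval of -0.59 to 0.10 (-0.24 ± 0.16, adjusted p = 0.31), and 0 of 6 entries were called. Scd1 stood at 9.04 ± 0.841 times Scd2 in NC and 8.76 ± 0.768 times in KD at 24 h (log2 difference -0.04, exact permutation test, p = 0.55), and at 14.9 ± 1.01 (13.9 to 16.4) in NC and 8.81 ± 1.12 (7.21 to 10.1) in KD at 72 h (-0.76, p = 0.0022, adjusted over the 6 tests 0.0032). The 72 h ranges did not meet. This ratio is built from the Scd1 and Scd2 values given above, so it is no evidence apart from them. How reads shared by these close paralogs were assigned cannot be read from the table, so their separate levels are uncertain to that degree.

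**Figure D2:**
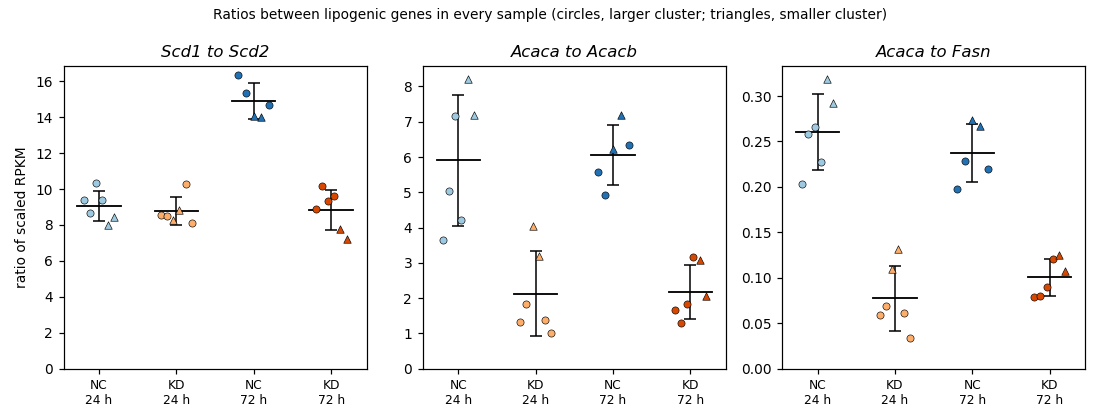
Scd1 to Scd2, Acaca to Acacb and Acaca to Fasn ratios of scaled RPKM in each sample by group, with the mean and SD as line and bar. The Scd1 to Scd2 ratio overlaps between groups at 24 h, and at 72 h NC lies at 13.9 to 16.4 and KD at 7.21 to 10.1, and both Acaca ratios fall at 24 h and 72 h.

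Elovl6, which elongates palmitate, was not called at either time. At 24 h it ranged from 5.33 to 8.69 scaled RPKM in NC (median 7.39) and from 4.65 to 6.99 in KD (median 6.40), a difference of -0.29 ± 0.17 (adjusted p = 0.24, 95% interval -0.65 to 0.08). At the later time the NC samples read 5.44 (replicate 1), 4.44 (the averaged pair), 7.25, 7.56 and 5.38 (replicates 4, 5 and 6), and KD ran from 2.68 to 8.19 (median 4.11), with a difference of -0.41 ± 0.27 (adjusted p = 0.29, 95% interval -0.98 to 0.16). The highest KD sample lay above every NC sample.

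Among the regulators, Srebf1 was called at neither time. At 24 h it ranged from 17.3 to 19.8 scaled RPKM in NC (median 18.7) and from 15.3 to 35.7 in KD (median 22.2), with a difference of 0.27 ± 0.19 (adjusted p = 0.31, 95% interval -0.13 to 0.67). The KD samples spread far more than the controls at this time, and the highest was KD 24 h replicate 6, the library with the fewest reads. At 72 h the NC samples read 17.6 (replicate 1), 14.0 (the averaged pair), 11.1, 12.2 and 16.9 (replicates 4, 5 and 6), and KD ran from 10 to 16.4 (median 12.7), for -0.14 ± 0.17 (adjusted p = 0.58, 95% interval -0.50 to 0.22). These values are of its mRNA, whereas SREBP1 acts after cleavage of its protein, which RNA does not report.

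Mlxipl had few reads, 237 and 166 over NC and KD at 24 h and 199 and 135 at 72 h. It ranged at 24 h from 1.68 to 3.39 scaled RPKM in NC (median 2.62) and from 0.975 to 2.45 in KD (median 2.08; -0.42 ± 0.25, adjusted p = 0.25, 95% interval -0.95 to 0.12). The NC samples at 72 h read 3.89 (replicate 1), 2.87 (the averaged pair), 3.31, 3.66 and 1.92 (replicates 4, 5 and 6), and KD ran from 0.634 to 2.30 (median 1.53). The lowest NC sample fell inside the KD range. Mlxipl was at 46.2% of control (-1.11 ± 0.34, adjusted p = 0.029), and the call was lost without scaling, without the filter and with the replicate block, at adjusted p of 0.067, 0.074 and 0.098, and without any of 5 single samples (NC 72 h replicates 1, 4 and 5, KD 72 h replicates 1 and 3).

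**Figure D3:**
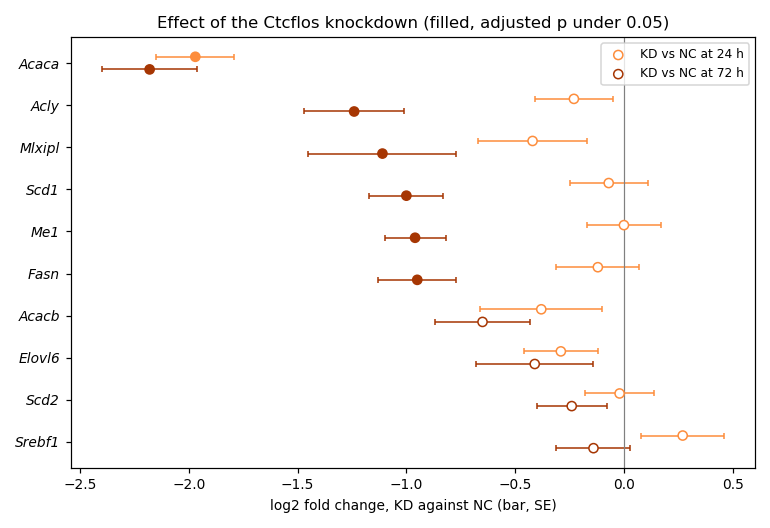
Log2 fold change of KD against NC for the 10 genes at 24 h and 72 h, with SE as bars and filled points for an adjusted p under 0.05. Acaca lies near -2 at both times, and Fasn, Acly, Scd1 and Me1 lie near 0 at 24 h and near -1 at 72 h.

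Whether the knockdown effect changed between 24 h and 72 h was tested by the interaction of knockdown and time. None of the 10 passed (0.182% of the 59411 entries tested did, 108 in all, and 6883 had an unadjusted p under 0.05). The estimates nearest the threshold were Me1 at -0.96 ± 0.24 (adjusted p = 0.098), Scd1 at -0.94 ± 0.27 (0.14), Acly at -1.02 ± 0.31 (0.18) and Fasn at -0.83 ± 0.28 (0.22), and that of Acaca was -0.21 ± 0.29 (0.82). A difference between the times was thus not shown for these enzymes, although the unadjusted 95% interval of each of the first 4 left out 0, that of Me1 running from -1.45 to -0.47.

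In the controls themselves 3 of the 10 were higher at 72 h than at 24 h, where 4.50% of 52834 entries were: Scd1 (0.78 ± 0.20, adjusted p = 0.023), Acaca (0.53 ± 0.14, adjusted p = 0.03) and Fasn (0.66 ± 0.18, adjusted p = 0.036). Acly rose by 0.69 without passing (adjusted p = 0.086), and Srebf1 fell by 0.40 without passing (adjusted p = 0.073). This comparison shares its control samples with the knockdown comparisons, so the group means are set side by side: Scd1 averaged 1170 and 2060 in NC and 1125 and 985 in KD, and Fasn 53.8 and 86.1 in NC and 50.0 and 43.8 in KD. In NC both means were higher at 72 h than at 24 h, and in KD both were lower, differences between KD times that were not tested.

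The cluster a sample belonged to moved with several of the values at 72 h. In the larger cluster (7 samples), Fasn, Acly, Scd1 and Me1 differed by -1.37, -1.74, -1.35 and -1.27, and in the smaller (4 samples) by -0.24, -0.43, -0.49 and -0.42. In the larger cluster 8 of the 10 were called lower, Acaca, Acacb, Fasn, Acly, Scd1, Scd2, Srebf1 and Me1 (12.4% of all entries there), and in the smaller 2 were, Acaca and Scd1 (6.84% of all entries there). Acaca differed by -2.58 and -1.44, while Scd2 read -0.64 in the larger and 0.41 in the smaller, and Srebf1 -0.48 and 0.44. At 24 h Acaca read -2.19 and -1.52 within the clusters, and Srebf1 0.55 and -0.28. Since the clusters were found in these same libraries, no test of the difference between them is given.

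**Figure D4:**
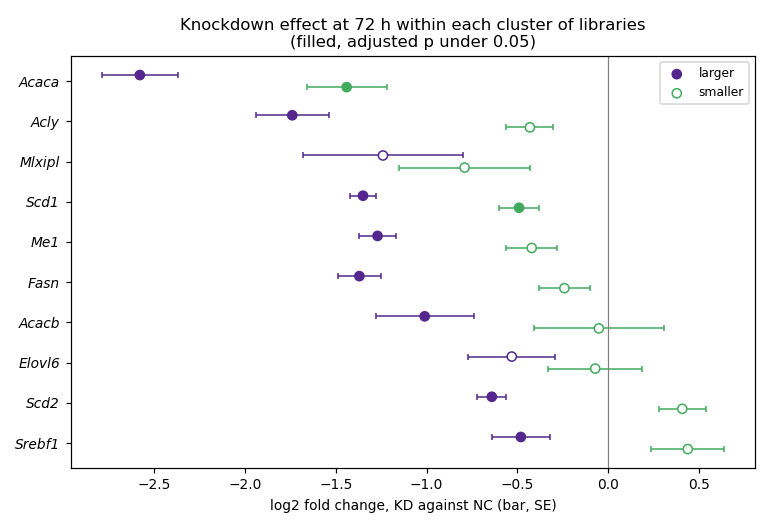
Log2 fold change of KD against NC at 72 h within the larger cluster (7 samples) and the smaller cluster (4 samples) for the 10 genes, with SE as bars and filled points for an adjusted p under 0.05. Acaca lies below 0 in both, and Fasn, Acly, Scd1 and Me1 lie nearer to 0 in the smaller cluster.

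Across all 23 samples, the log2 levels of Fasn were closest to those of Acss2, which makes acetyl-CoA from acetate (Pearson r 0.95), then Scd1 (0.94), Acly (0.92), Cox7a1 (0.92) and Me1 (0.90), of 10316 genes searched. These correlations describe samples that share group differences and clusters. As deviations from group means, Fasn tracked Me1 and Scd2 (0.94 each), Scd1 (0.87), Acly (0.84), Acacb (0.82) and Srebf1 (0.76). With Acaca, Mlxipl and Elovl6 it stood at 0.29, 0.28 and 0.09. The clusters were found in deviations of this kind, so these correlations carry them too. For Srebf1 the closest were D17Wsu92e, Slfn5, Papd7, Usp25 and the desaturase gene Fads3, all at 0.87. Neither set of neighbours was tested for anything.

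The wider pathway was read from lists, whose counts stand beside 11.2% of all entries called lower and 10.8% higher at 24 h, and 11.5% and 10.6% at 72 h. Of the 8 genes that supply citrate and acetyl-CoA, 3 were lower at 24 h and 6 at 72 h with 0 higher (median log2 fold change -0.22 and -0.66, beside -0.02 and 0.02 for all entries). Mpc1, a subunit of the mitochondrial pyruvate carrier, fell at both times, by 0.61 ± 0.16 (adjusted p = 0.017) and by 1.42 ± 0.13 (adjusted p = 1.1e-05). Its mean scaled RPKM at 72 h was 39.6 in NC and 14.8 in KD. Acss2 stood at 68.9 ± 15.7 in NC and 34.1 ± 10.1 in KD at 72 h (-1.03 ± 0.20, adjusted p = 0.0022), and at 24 h its difference was -0.13 ± 0.17 (adjusted p = 0.61). Of 7 genes listed for NADPH supply and the reactions around it, 4 were lower at 24 h (G6pdx, Idh1, Mdh1 and Tkt) and 4 at 72 h (G6pdx, Idh1, Mdh1 and Taldo1), with medians of -0.42 and -0.50. Of these, G6pdx and Idh1 make NADPH themselves, Mdh1 is an NAD-linked malate dehydrogenase, and Tkt and Taldo1 belong to the nonoxidative pentose phosphate pathway. G6pdx, the entry enzyme of the pentose phosphate pathway, differed by -0.51 (adjusted p = 0.031) and then by -0.92 (adjusted p = 6.4e-05).

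In the further elongation and desaturation list, 12 of 15 genes were tested. At 24 h 4 were lower and 1 higher, and at 72 h 5 were lower and 2 higher (medians -0.39 and -0.37). Elovl3, the very-long-chain elongase of brown fat, was lower by 1.06 ± 0.28 (adjusted p = 0.017) and 0.67 ± 0.11 (adjusted p = 8.6e-04), and Hacd2, a dehydratase of the elongation cycle, by 1.2 ± 0.16 (adjusted p = 3.1e-04) and 0.81 ± 0.21 (adjusted p = 0.012). In the other direction, Elovl4 was higher at 24 h by 1.24 ± 0.35 (adjusted p = 0.022) and Elovl7 at 72 h by 1.0 ± 0.29 (adjusted p = 0.024), both on low levels. The Elovl4 call was lost with no filter (adjusted p = 0.087), in the smaller cluster (0.47) and without NC 24 h replicate 2 (0.052) or KD 24 h replicate 1 (0.055). The Elovl7 call was lost with no filter (adjusted p = 0.17), with the replicate block (0.069), in the larger and the smaller cluster (0.062 and 0.37) and without NC 72 h replicate 4 (0.058). Of 6 genes of SREBP processing 5 were tested, 0 were called at 24 h and 2 were lower at 72 h: Insig1, the sterol-dependent anchor that is itself a target of SREBP, at means of 2472 in NC and 1120 in KD (-1.28 ± 0.29, adjusted p = 0.006), and the protease gene Mbtps2 (-0.84 ± 0.26, adjusted p = 0.033).

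Of 12 LXR, ChREBP-partner and cofactor genes, 11 were tested, with 3 lower and 1 higher at 24 h and 5 lower and 0 higher at 72 h (medians 0.06 and -0.47). Thrsp, the lipogenic cofactor known as Spot 14, was lower at both times, with means of 625 and 247 in NC and KD at 24 h and of 1488 and 500 at 72 h (-1.22 ± 0.27, adjusted p = 0.0059, and -1.59 ± 0.17, adjusted p = 2.8e-05). Rxra, the nuclear receptor partner of LXR, was lower at -1.09 ± 0.24 (adjusted p = 0.0059) and -1.34 ± 0.27 (adjusted p = 0.0034). Mlx, the partner of ChREBP, was lower at both times (-0.93, adjusted p = 0.0034, and -0.42, adjusted p = 0.048). Usf1 was higher at 24 h (0.88, adjusted p = 0.012). Usf2 (-0.68, adjusted p = 0.023) and Txnip (-0.53, adjusted p = 0.011) were lower at 72 h. Of 6 AMPK subunit genes, whose kinase phosphorylates and inactivates acetyl-CoA carboxylase, Prkab1 was higher at both times (1.0 ± 0.25, adjusted p = 0.012, and 0.71 ± 0.18, adjusted p = 0.011) and Prkag1 was lower at 24 h (-1.03 ± 0.21, adjusted p = 0.0045). The medians of the 6 were 0.05 at 24 h and -0.48 at 72 h.

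The cluster moved these genes too. In the smaller cluster alone, with 4 samples at each time, Mpc1, Elovl3, Thrsp and Prkab1 read -0.34, -0.21, -0.40 and 0.20 at 24 h, and the calls on Hacd2 (-1.08), Rxra (-1.0) and Prkag1 (-0.75) were lost as well. At 72 h Acss2 read -0.20 there (adjusted p = 0.42), and Hacd2 (-0.95), Rxra (-0.86) and Prkab1 (0.72) were not called. Mpc1 (-1.45, adjusted p = 0.0015), Thrsp (-1.31, adjusted p = 5.4e-04) and Insig1 (-2.19, adjusted p = 9.9e-05) were called lower at 72 h in the smaller cluster.

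**Figure D5:**
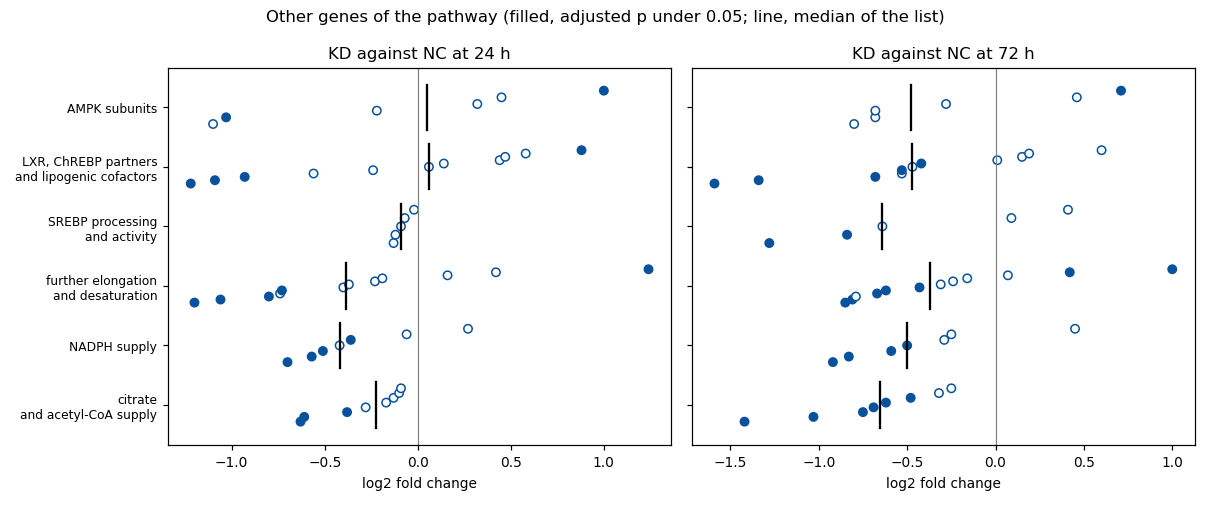
Log2 fold change of KD against NC for each tested gene of the 6 pathway lists at 24 h and 72 h, with filled points for an adjusted p under 0.05 and a line at each list's median. All 6 medians lie below 0 at 72 h, and Mpc1, Insig1, Rxra and Thrsp are among the genes furthest below.

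These were bulk RNA values, so fewer adipocytes and less RNA per adipocyte cannot be told apart. The summed level of 6 adipocyte markers ran from 36584 to 48108 in NC and from 26100 to 35798 in KD at 72 h. On scaled values these ranges did not meet (7.43% of all entries lay wholly below their controls), by a narrow margin. The nearest samples, KD replicate 5 at 35798 and NC replicate 5 at 36584, had been divided by scaling factors of 1.16 and 0.941. Before scaling the ranges overlapped. Most of the sum was Fabp4 (means 37569 and 25407). Adipoq, Fabp4 and Lpl were called lower (3 of 6), and Plin1, Cidec and Lipe were not called, Cidec reading 0.12 ± 0.12. At 24 h the sum ran from 49651 to 53397 in NC and from 37384 to 50624 in KD, with 2 of 6 called lower (Adipoq and Lipe). Counts called in the marker lists stand beside 11.2% of all entries lower and 10.8% higher at 24 h, and 11.5% and 10.6% at 72 h. Stromal progenitor and fibroblast markers, summed over 10 genes, ran from 985 to 2586 in NC and from 1391 to 1752 in KD at 72 h. Within that list Cd34 (2.02, adjusted p = 0.0014) and Pdgfrb (0.61, adjusted p = 0.0079) were higher and Col3a1 (-0.67, adjusted p = 0.025) was lower at 72 h, with 0 called at 24 h. Macrophage markers, over 6 genes, ran from 9.88 to 31.7 and from 5.96 to 13.7 at 72 h, and moved both ways: Lyz2 was lower (-3.67, adjusted p = 6.8e-04) and Csf1r higher (1.24, adjusted p = 0.0028), as it was at 24 h (1.22, adjusted p = 0.0064). Endothelial markers were at or under 1.59 in every sample. The 6 mesothelial and epithelial markers ran from 19.0 to 28.2 in NC and from 97.4 to 165 in KD, nearly all of it Krt19 (means 22.9 and 137, log2 fold change 2.55, adjusted p = 5.2e-07, and also called higher at 24 h, adjusted p = 0.0098), with Upk3b and Epcam at 0 in all 72 h samples. Skeletal muscle markers ran from 4.32 to 20.7 and from 0.974 to 7.74, with Acta1 called lower (-1.74, adjusted p = 0.029). The part of any of these in the values of the 10 genes was not tested.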

How the data were processed

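Barcoded 3′ libraries (BRB-seq) were sequenced on an Illumina NextSeq. The authors aligned the tags to the NCBI Reference Sequence Database with the Genomatix software and deposited 1 table of RPKM values, with decimal commas, for 168326 transcript entries and 24 libraries. The genome build, strand setting and versions are not given in the sources used here. The deposited table holds no unused columns. Because RPKM is not a count, limma 3.58.1 (R 4.3.3) was used on log2(scaled RPKM + 0.1), with a TMM-type scaling (30% and 5% trims) over 23 samples and an intensity trend, in place of the count model that the authors ran. Whole reads were recovered from the steps of the RPKM values to give depth and a filter, at least 10 read equivalents of the median library in as many samples as the smaller group and 15 in all. Adjusted p-values are Benjamini-Hochberg over all entries, with 0.05 as threshold. Fold changes are on the log2(value + 0.1) scale and understate low genes. Genes were named by rule: all 10 members, and pathway-list genes that were called with an absolute log2 fold change of at least 1. Other called genes were named for some of the lists with 5 or fewer calls at a time, and not for all. Called genes of the marker lists were named besides, most of them after their values were seen. The members and lists were chosen with earlier results of these data known. The fit was tested on simulated data, and 5 listed genes were matched by synonyms from RefSeq. Promoters came from RefSeq (GRCm38.p6), which also served for names and gene spans. GENCODE transcript lengths were used to recover the library totals.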

Additional observations from a re-analysis of the deposited data

Results flagged for a closer look

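The gap between the highest or lowest sample and its nearest neighbour was compared with Dixon's 95% critical value in each group. Over the 10 genes and 4 groups, 0 of 40 groups passed it. After these were seen, the set was widened to depth, the 3 ratios and the summed markers, 80 groups in all, of which 2 passed, where chance gives about 1 in 20. KD 24 h replicate 6 held 1391832 reads, far below the other 5 of its group. The ratio of Scd1 to Scd2 was 10.2 in KD 24 h replicate 5, above the other 5 samples of its group, whose mean with it was 8.76.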

How the results depend on the processing

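The call on Acaca held at 24 h and 72 h in all alternatives run, those that left out 1 sample and both clusters included. Counts of the 10 genes called ran from 1 to 1 at 24 h, from 5 to 7 at 72 h and from 0 to 0 for the interaction over the fits that left out 1 sample, and from 0 to 4 for NC over time (0 without the averaged NC 72 h pair or NC 72 h replicate 6, and 1 without NC 24 h replicate 1, 2, 5 or 6 or NC 72 h replicate 1). At 72 h 2 were called in the smaller cluster alone. The interaction called 2 (Scd1 and Me1) with the cluster as a term and 6 (Fasn, Acly, Scd1, Scd2, Srebf1 and Me1) in the larger cluster alone. NC over time called 0 with no filter, 1 with no intensity trend, 6 with the cluster as a term, 5 in the larger cluster alone and 5 with NC 72 h replicates 2 and 3 counted separately. Leaving out KD 24 h replicate 6 and NC 72 h replicate 6 together, an alternative chosen after seeing the data, gave the interaction 0 calls. The cause was not tested.

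Replicate numbers did not pair the samples: deviations of same-numbered samples correlated at 0.02 on average, and at -0.23, -0.14 and -0.36 at the lowest. With the replicate block, 1, 5, 0 and 1 of the 10 were called at 24 h, 72 h, for the interaction and for NC over time, and the block moved the interaction from 108 to 28 entries and NC over time from 4828 to 2888.

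Counts of all entries moved with the number tested. With 1 entry per symbol, 2527, 2786, 48 and 1068 were called at 24 h, 72 h, for the interaction and for NC over time, and with RefSeq NM_ entries alone 3512, 3465, 51 and 1382. In the smaller cluster alone they were 1629, 5731, 1925 and 1720. The interaction gave 774 with no scaling, 242 with a pseudocount of 1, 276 with the cluster as a term, 745 in the larger cluster, 185 with replicates 2 and 3 separate, 60 with no trend, and 54 to 163 without 1 sample (163 without KD 24 h replicate 6).

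Among the named genes, signs reversed for values that were not called. At 24 h Scd2 log2 fold change read 0.04 with no scaling, 0.07 in the larger cluster and -0.10 to 0.07 without 1 sample, Me1 read -0.01 with scaling within the comparison and by voom, -0.03 in the smaller cluster and -0.13 to 0.08 without 1 sample, Scd1 read -0.15 to 0.03 without 1 sample, and in the smaller cluster Srebf1 read -0.28 and Insig1 0.15. At 72 h Srebf1 read 0.09 with no scaling and 0.44 in the smaller cluster, where Scd2 read 0.41. The interaction of Elovl6 read 0.05 with no scaling and -0.30 to 0.02 without 1 sample, and in the smaller cluster Acaca, Acacb, Acly, Scd2, Elovl6, Srebf1 and Mlxipl read 0.08, 0.36, 0.02, 0.62, 0.19, 0.72 and 0.13. NC over time of Scd2 read -0.11 in the smaller cluster and -0.02 to 0.20 without 1 sample. Of the single-gene values, 1527 kept direction and side of the threshold, 58 lost and 33 gained a call.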
